A study of Mus musculus with 24 samples.

Results

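The genes described here encode the general translation factors outside the cap-binding eIF4F complex: eIF1, eIF2, eIF2B, eIF3, eIF5, eIF5A, eIF5B and eIF6, the release factors, and the factors that recycle ribosomes or restart them after a stop codon. They were taken from a fixed list of 35 gene symbols, and each was read from the brightest array probe set that carries its symbol alone. No gene was picked by a value, but the list was chosen with earlier results of these data known. Of the 35 genes, 32 were measured and 32 of 32 passed the filter on low values, among 14830 genes kept in all. Eif1, Eif2s1 and Eif3g had no probe set under 1 symbol and were not analysed here.

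Mouse embryonic fibroblasts (MEFs), primary connective tissue cells that grow attached in culture, came from 6 embryos at E13.5. Of these, 3 embryos were wild type (WT) and 3 were Eif4e+/-, with 1 intact allele of the gene for the cap-binding protein eIF4E. Each embryo gave an early passage untransformed culture and a matched culture transformed with Ras and Myc. From every culture, total RNA and RNA of the high molecular weight polysomes (mRNAs loaded with many ribosomes) were hybridised to separate arrays. Cells grew exponentially in medium with 10% serum, and those fractionated on gradients had received cycloheximide, which holds ribosomes on the mRNA, at 100 µg/ml. The 24 arrays therefore form 8 groups of 3, and embryos are the replicates. Translational efficiency (TE) is the log2 polysomal value minus the log2 total value of the same culture, as the series defines it. Every transformed culture carries both oncogenes, so Ras and Myc cannot be told apart, and neither can transformation and whatever time or selection in culture went with it. The labels do not say whether a transformed culture is a pool or a single clone. Eif4e+/- cells lack an allele from conception on, in all cell types of the embryo.

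Initiation starts when eIF2, carrying the initiator tRNA and GTP, joins the small ribosomal subunit together with eIF1, eIF1A, eIF3 and eIF5. eIF3 is the large scaffold that links this complex to the mRNA, eIF1 and eIF1A keep it open for scanning, eIF5 triggers GTP hydrolysis at the start codon, and eIF5B joins the large subunit. eIF2B reloads eIF2 with GTP, and it is blocked when stress kinases phosphorylate eIF2. At the stop codon eRF1 and eRF3 release the peptide, ABCE1 splits the ribosome, and the MCTS1-DENR pair or eIF2D clears the small subunit and can help it to start again.

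Sequences are shown for the genes the results turn on and for the start and promoter features they differ in. They are from RefSeq, build GRCm38.p6, and 29 of the 35 genes were in that promoter table; Eif2b3, Eif3e, Eif3h, Eif3i, Eif6 and Etf1 were not. The first set holds the starts of Mcts1 and Denr, the pair whose mRNAs changed in different ways. Each line holds 10 bases before the annotated start in lower case and the first 20 transcribed bases in capitals. Mcts1 has annotated starts at 2 places that lie 788 bases apart, at chrX:38600461-38600490 and chrX:38601249-38601278 on the plus strand, and Denr at chr5:123907265-123907294 on the plus strand.
Mcts1 upstream start: ttcttccagcAACCAGAAAGAATTGCTTGA
Mcts1 downstream start: ctagattaacCTTGTCTTGAGAACAACGTG
Denr start: ccccagcagcGAATTTCGGGGCAGCCGTGG
The next set holds the genes whose annotated start is a C followed by at least 4 pyrimidines, the letters of a terminal oligopyrimidine (TOP) start, which is typical of ribosomal protein mRNAs. These were Eif2s3x at chrX:94212632-94212661 on the minus strand and Eif3f at chr7:108934405-108934434 on the plus strand, with the pyrimidine run in capitals.
Eif2s3x start: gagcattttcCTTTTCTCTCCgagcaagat
Eif3f start: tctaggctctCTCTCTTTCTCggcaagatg
The letters were found at 2 of 29 members (6.9%), against 2.95% of the 11709 kept genes in the table and 3.01% of all its 27025 genes.

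The last set shows CACGTG, the E-box letters to which Myc with its partner Max is known to bind, because Myc is one of the transforming genes. The motif reads the same on both strands, and it was searched from 250 bases before to 50 bases after each start. It was found in 6 of 29 members (20.7%), namely Eif1b, Eif3a, Eif3f, Eif3k, Eif5a and Eif5a2, against 10.9% of the kept genes and 8.1% of all genes in the table. The examples are 1 member that rose in total RNA after transformation, Eif3k at chr7:28981915-28981944 on the minus strand, and 1 that fell, Eif5a2 at chr3:28781123-28781152 and chr3:28781148-28781177 on the plus strand, with the motif in capitals.
Eif3k: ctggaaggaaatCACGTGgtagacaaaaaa
Eif5a2 first motif: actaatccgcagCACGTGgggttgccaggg
Eif5a2 second motif: cagggcgagcttCACGTGacggggcgggac
Of the 7 members in the table that rose, 1 held the motif, and of the 2 that fell, 1 did. A match describes letters only and not a bound site.

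The mean log2 value of an array was between 7.465 and 7.503 for total RNA and between 3.776 and 3.789 for polysomal RNA. Thus each fraction has its own common level, a TE value has no absolute scale and only its rank or its change is read. The number of arrays limits the precision. Eif4e itself, the targeted gene, was 9.03 to 9.21 in untransformed WT and 8.69 to 8.88 in untransformed Eif4e+/- total RNA, and 9.40 to 9.80 against 8.84 to 9.21 after transformation. The groups did not overlap in either state, with differences of -0.30 and -0.57, although neither passed limma's test over all genes (adjusted p = 0.9999 and 0.20). All 10 fibroblast markers lay above the 40th percentile of every total RNA array, with a list mean of 10.69 to 10.96 in untransformed and 9.23 to 10.58 in transformed cultures. Of the markers of other cells, 0 of 5 endothelial, 1 of 5 leukocyte, 2 of 4 epithelial, 2 of 4 neural and 1 of 3 muscle genes did so. In untransformed cultures the list mean was 6.59 to 6.99 for endothelial, 6.995 to 7.29 for leukocyte, 7.33 to 7.52 for epithelial, 8.22 to 8.45 for neural and 7.12 to 7.36 for muscle genes. In transformed cultures it was 6.23 to 6.59, 6.53 to 7.14, 7.48 to 8.51, 7.76 to 8.41 and 6.85 to 7.14, in the same order. Of the fibroblast markers 5 of 10 fell with transformation, where 15.8% of all genes were called lower (adjusted p under 0.05 in limma). No test compared these shares, and the part of any of these lists in the changes below was not tested. In such bulk cultures, fewer cells that express a gene and less RNA of it per cell cannot be told apart. In polysomal RNA, the untransformed WT embryo 1, the transformed WT embryo 3 and the transformed Eif4e+/- embryo 3 arrays stood apart from the rest (median correlation with the other polysomal arrays under 0.9 over the kept genes).

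Transformation moved total RNA of the factors by small amounts, mostly upward. Of 32 members 9 rose and 2 fell (limma with embryo as a block, Benjamini-Hochberg adjusted p under 0.05), which is 34.4% of the members against 30.8% of all genes. The split by direction was 28.1% higher where all genes had 15.0% higher and 15.8% lower. Values were higher in all 6 embryos for 14 members and lower in all 6 for 2, against 16.6% and 15.4% of all genes. The members' median change was 0.10 (log2), against 0.03 for all genes. Called changes ran from 0.20 to 0.39 upward and from -0.35 to -0.38 downward, so the largest rise was 1.31-fold. With 1 embryo left out, the number called was 7 without WT 1, 5 without WT 2, 9 without WT 3, 5 without Eif4e+/- 1, 6 without Eif4e+/- 2 and 5 without Eif4e+/- 3, while 19.4% to 31.2% of all genes were called. The share of members called thus lay near that of all genes and is no result about the members, and whether their directions differ from those of other genes was not tested.

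**Figure D1:**
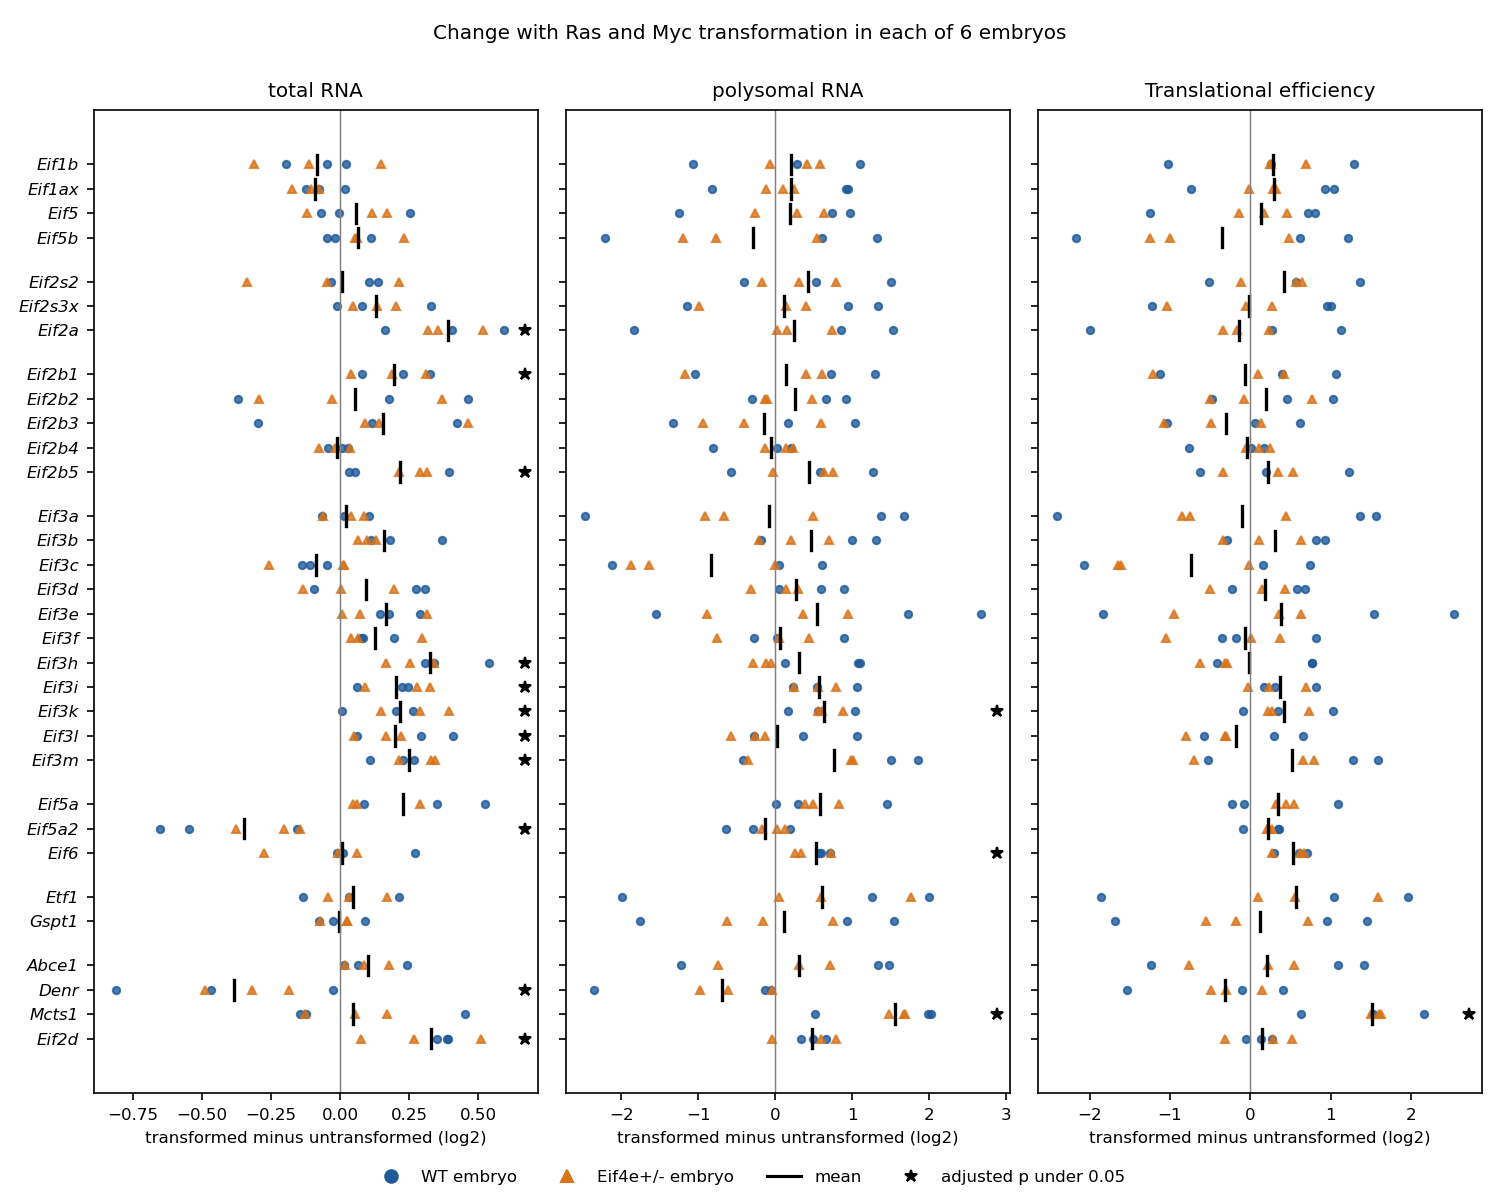
Change with transformation (transformed minus untransformed, log2) of each of 32 factor mRNAs in total RNA, polysomal RNA and translational efficiency. Points are the 3 WT and 3 Eif4e+/- embryos, bars the mean of 6, stars an adjusted p under 0.05; the x axes differ between panels. Most total RNA points of eIF3 subunits lie to the right of 0, and in polysomal RNA the spread between embryos is several log2 units for members such as Eif3a and Eif3e, while all 6 points of Mcts1 lie above 0.5.

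Of the 11 measured subunits of eIF3, the largest group of the set, 5 rose in total RNA (Eif3h, Eif3m, Eif3k, Eif3i and Eif3l), where 15.0% of all genes did, and 0 fell. In all, 8 of 11 were higher in all 6 embryos, against 16.6% of all genes. No test compared these shares. Eif3h, a regulatory subunit, was 12.16, 12.14 and 12.17 in untransformed WT and 12.18, 12.21 and 12.20 in untransformed Eif4e+/- embryos 1, 2 and 3. After transformation it was 12.47, 12.48 and 12.71 in WT and 12.44, 12.55 and 12.37 in Eif4e+/- embryos. All 6 transformed values lay above all 6 untransformed ones. The change was 0.32 ± 0.06 (SE, n = 6 embryos), with an adjusted p of 0.00589 from limma.

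Eif3m, a PCI domain subunit of the octameric core, was 11.94, 11.84 and 11.85 (WT) and 11.96, 11.93 and 12.004 (Eif4e+/-) before and 12.21, 12.07 and 11.95 and 12.29, 12.27 and 12.22 after transformation. It was higher in each embryo, and the groups overlapped only through the transformed WT embryo 3 culture, with a change of 0.25 ± 0.05 (limma adjusted p = 0.0111). Its second, dimmer probe set changed by 0.32, also upward in 6 of 6 embryos. Which genomic copy either Eif3m set reads is not given in the sources used here. Eif3k, a small subunit, was 11.48, 11.41 and 11.41 (WT) and 11.47, 11.46 and 11.43 (Eif4e+/-) before and 11.49, 11.68 and 11.62 and 11.76, 11.85 and 11.58 after. The groups did not overlap, although WT embryo 1 moved by 0.01 only, and the change was 0.22 ± 0.06 (limma adjusted p = 0.0329). Eif3i and Eif3l rose by 0.20 each (limma adjusted p = 0.0345 and 0.0489).

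The other 6 measured subunits of eIF3 were not called. Eif3b, the scaffold for Eif3i and Eif3g, and Eif3e had changes of 0.16 and 0.17 that were above 0 in 6 of 6 embryos and did not pass the test (limma adjusted p = 0.0648 and 0.075). Eif3a, the largest subunit, had 0.02 and Eif3c, which contacts eIF1 and eIF5, had -0.09. Without any 1 of the 6 embryos, Eif3h and Eif3m were still called, whereas Eif3k and Eif3l each lost their call when any embryo other than WT 1 was left out, and Eif3i without WT 1, WT 2, Eif4e+/- 1 or Eif4e+/- 2.

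Outside eIF3, the largest rise was that of Eif2a. It encodes eIF2A, a factor that can deliver initiator tRNA without GTP and is not a subunit of eIF2. It was 11.13, 10.96 and 11.22 (WT) and 11.09, 11.17 and 11.21 (Eif4e+/-) in untransformed and 11.53, 11.56 and 11.38 and 11.60, 11.52 and 11.53 in transformed cultures. The groups did not overlap, and the change was 0.39 ± 0.07 (limma adjusted p = 0.00653). The measured subunits of eIF2 itself, Eif2s2 (beta) and Eif2s3x (gamma), had 0.01 and 0.13 and were not called.

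Of the 5 subunits of eIF2B, the exchange factor of eIF2, 2 rose. Eif2b5, the catalytic epsilon subunit, was 8.995, 8.87 and 8.89 (WT) and 8.97, 9.02 and 8.99 (Eif4e+/-) before and 9.03, 9.27 and 8.94 and 9.26, 9.33 and 9.20 after transformation. The groups overlapped through the transformed WT embryo 3 culture, and the change was 0.22 ± 0.06 (limma adjusted p = 0.0418). Eif2b1, the regulatory alpha subunit, rose by 0.20 (limma adjusted p = 0.0483). Eif2b3, Eif2b2 and Eif2b4 had 0.16, 0.05 and -0.01 and were not called. Both calls are near the threshold: Eif2b5 lost its call when any embryo other than WT 3 was left out, and Eif2b1 without WT 1, WT 2, Eif4e+/- 1 or Eif4e+/- 3.

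Of the 4 measured scanning and start-codon factors (Eif1b, Eif1ax, Eif5 and Eif5b) 0 were called in total RNA, with changes from -0.09 to 0.07 and 0 at an unadjusted p under 0.05. Eif1b is the close copy of Eif1, whose own mRNA was not analysed here. It was 11.07 in all 3 untransformed WT cultures and 11.13, 11.04 and 11.17 in untransformed Eif4e+/- ones, and 10.87, 11.09 and 11.02 and 11.01, 11.19 and 10.86 after transformation, so the groups overlapped. The release factors Etf1 (eRF1) and Gspt1 (eRF3a) had 0.05 and -0.0049 and were not called either.

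The paralogs of eIF5A, the factor that relieves stalling of the ribosome at difficult peptide bonds, had changes of opposite sign. Eif5a2, the copy with the more restricted expression, was 8.22, 8.02 and 8.41 (WT) and 8.30, 8.27 and 8.14 (Eif4e+/-) in untransformed and 8.06, 7.47 and 7.76 and 8.16, 8.06 and 7.76 in transformed cultures. It was lower in 6 of 6 embryos, although the groups overlapped, and fell by 0.35 ± 0.08 on the log2 scale (limma adjusted p = 0.0157). The call was lost without WT embryo 2 or Eif4e+/- embryo 3. Eif5a, the general copy, had 0.23 ± 0.07 upward in 6 of 6 embryos and did not pass (limma adjusted p = 0.0538); its second probe set had 0.21, also upward in 6 of 6. The difference between the paralogs was not tested.

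The recycling and reinitiation factors showed the widest differences among themselves. Eif2d, which recycles small subunits and can deliver tRNA to them, was 7.97, 8.02 and 8.06 (WT) and 7.98, 8.25 and 7.96 (Eif4e+/-) before and 8.33, 8.41 and 8.45 and 8.25, 8.32 and 8.47 after transformation. It was higher in each embryo, the groups met at 8.25, and the change was 0.33 ± 0.07 (limma adjusted p = 0.0101). Denr, the partner of MCTS1, was 11.34, 11.08 and 11.51 (WT) and 11.24, 11.48 and 11.24 (Eif4e+/-) before and 10.88, 11.06 and 10.70 and 11.05, 11.00 and 10.92 after. The groups did not overlap, WT embryo 2 moved by only -0.03, and the mean fell by 0.38 ± 0.10 (limma adjusted p = 0.0309), a call that was lost when any embryo other than WT 2 was left out. Abce1, the ATPase that splits the ribosome, had 0.10 upward in 6 of 6 embryos and was not called. Mcts1 total RNA did not pass the test, with 0.05 ± 0.09 (limma adjusted p = 0.744), values of 9.15 to 9.55 before and 9.19 to 9.63 after, and rises in 3 of 6 embryos.

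In polysomal RNA, Mcts1 stood apart. Its level was 4.17, 4.53 and 5.72 in untransformed WT and 4.74, 4.74 and 5.32 in untransformed Eif4e+/- embryos 1, 2 and 3, and 6.19, 6.52 and 6.23 and 6.41, 6.21 and 7.01 after transformation. All 6 transformed values lay above all 6 untransformed ones, and each embryo rose, WT embryo 3 least (0.51) and WT embryo 1 most (2.02). The mean rise was 1.56 ± 0.21 (SE, n = 6 embryos), or 2.95-fold, with a limma adjusted p of 0.00588. It ranked 51 from the top of 14830 genes. Across the 6 embryos alone, the exact two-sided sign-flip permutation test gave p = 0.03125, the smallest it can give. Any gene that moves the same way in all 6 embryos reaches this p, as 7.32% of all genes did upward and 6.74% downward. It therefore adds nothing to the shared direction of the 6 changes.

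The TE of Mcts1, its polysomal minus its total value, rose as well. It was -5.16, -4.64 and -3.83 (WT) and -4.54, -4.81 and -3.83 (Eif4e+/-) before and -3.00, -3.11 and -3.19 and -3.04, -3.20 and -2.20 after transformation, again without overlap. The TE change was 1.51 ± 0.19 (limma adjusted p = 0.00524), rank 59 from the top of 14830. The WT change was 1.45 and the Eif4e+/- change 1.58, and Mcts1 was called in each setting tried for polysomal RNA (1.43 to 1.81) and TE (1.33 to 1.71), with adjusted p up to 0.0414 and 0.0489. Mcts2, an intronless copy of Mcts1 with its own probe set, picked after its values were seen, had 0.12 in total RNA, 0.17 in polysomal RNA and 0.05 in TE and was not called. The deposited table does not say which of the Mcts1 starts printed above the probe set reads.

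**Figure D2:**
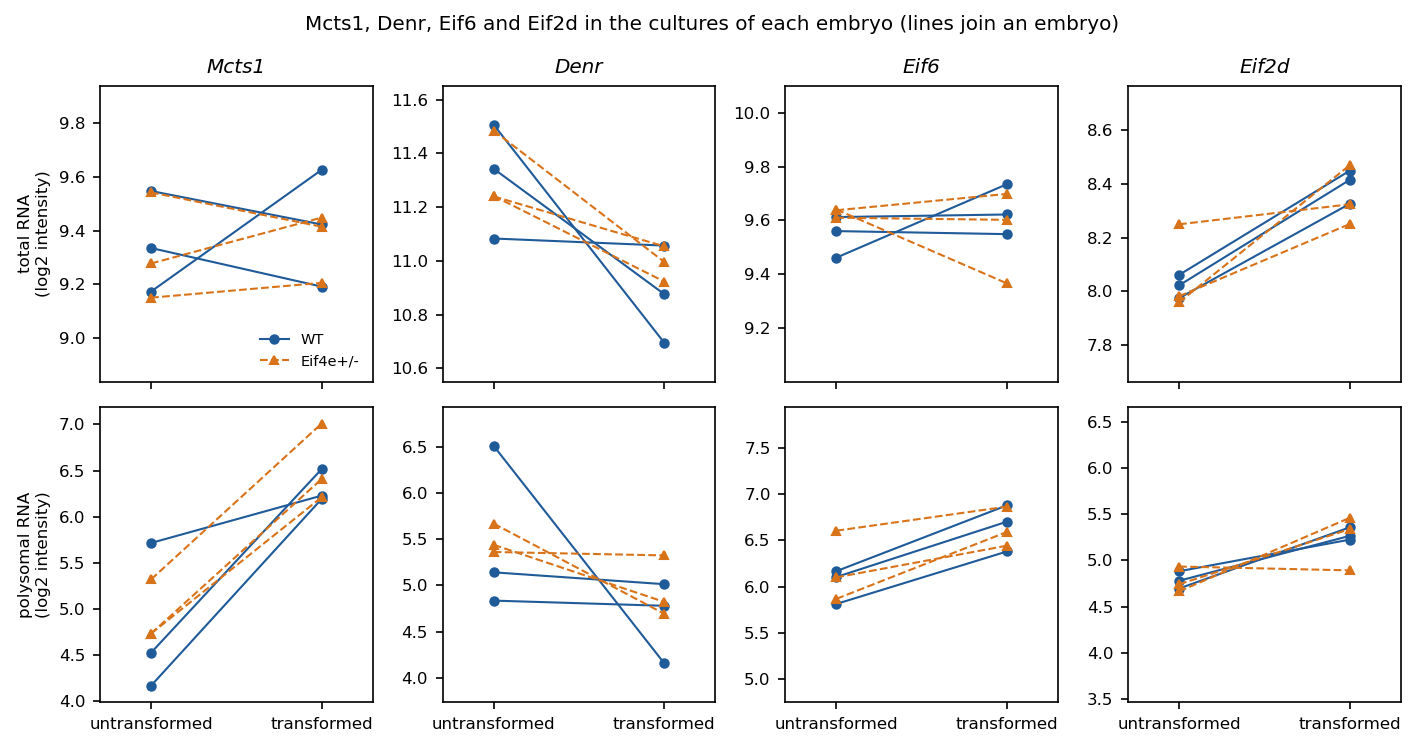
Levels of Mcts1, Denr, Eif6 and Eif2d (log2 intensity) in total RNA (top) and polysomal RNA (bottom), with a line for each embryo from its untransformed to its transformed culture. The 6 polysomal lines of Mcts1 all rise, from 4.17 to 5.72 before to 6.19 to 7.01 after, while its total RNA lines cross. The y axes of a row span the same number of log2 units but start at different values.

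The other members called in polysomal RNA were Eif6 and Eif3k, so that 3 of 32 rose and 0 fell, against 7.72% called among all genes (3.67% higher, 4.05% lower). Of the members, 5 were higher and 1 lower in all 6 embryos (all genes: 7.32% and 6.74%). Eif6, which keeps the large subunit from joining the small one too early and serves in its maturation, was 6.10, 5.81 and 6.17 (WT) and 6.60, 5.87 and 6.10 (Eif4e+/-) before and 6.70, 6.38 and 6.88 and 6.86, 6.59 and 6.44 after transformation. Each embryo rose, by 0.26 to 0.72, although the groups overlapped, and the change was 0.53 ± 0.12 (limma adjusted p = 0.0392).

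Eif6 total RNA had 0.01, and its TE change of 0.53 did not pass (limma adjusted p = 0.0893), although it was above 0 in 6 of 6 embryos. Polysomal Eif3k was 7.99, 8.31 and 7.96 (WT) and 8.41, 8.02 and 7.92 (Eif4e+/-) before and 9.04, 8.48 and 8.51 and 8.97, 8.63 and 8.80 after, without overlap, a change of 0.64 ± 0.15 (limma adjusted p = 0.0393). Both calls rest on most embryos: Eif6 lost its call when any embryo other than WT 3 was left out, and Eif3k without WT 1 or any 1 of the Eif4e+/- embryos. Both were also lost without the 3 polysomal cultures under the correlation cut, with 0.53 for Eif6 and 0.38 for Eif3k. Polysomal Denr was lower in 6 of 6 embryos, with a mean of -0.69 that did not pass (limma adjusted p = 0.236) and single values from -2.35 to -0.04.

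In TE, 1 of 32 members, Mcts1, rose and 0 fell, against 2.78% of all genes (1.81% higher, 0.971% lower). TE was higher in all 6 embryos for 2 members, Mcts1 and Eif6, and lower in all 6 for 0 (all genes: 6.53% and 4.42%). Most other factors moved widely and not alike between embryos. The members' median polysomal change was 0.97, 0.91 and -0.69 in WT embryos 1, 2 and 3 and 0.51, -0.23 and 0.31 in Eif4e+/- embryos 1, 2 and 3. For all genes it was -0.05 to 0.12. Because the polysomal arrays share a common mean level, a small all-gene median is largely set in advance. Genes of a level like that of the members were not compared.

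The polysomal values of these mRNAs spread more between cultures of a group than those of all genes, in a comparison not matched for level. The members' median within-group SD was 0.45 in polysomal RNA and 0.44 in TE, against 0.27 and 0.29 over all genes. In total RNA the order was the other way, 0.09 for the members and 0.13 for all genes. The members also had higher polysomal values, with a median of 5.87 to 7.38 per culture against 3.88 to 4.01 for all genes. Genes of like level were not compared, so the spread is not shown to be particular to these factors. Among the 6 untransformed cultures, WT embryo 3 held the highest polysomal value for 21 of 32 members and WT embryo 1 the lowest for 18. The SD of all values on those arrays was 1.44 and 1.15, the highest and the lowest of the polysomal arrays, and its part in the members' spread was not tested. Without WT embryo 3, 16 members were called higher after transformation in polysomal RNA and 6 in TE, with 18.5% and 10.4% of all genes called in those fits. The polysomal number was 1 without WT embryo 1 or any 1 of the Eif4e+/- embryos and 2 without WT embryo 2, and the TE number was 1 in each of these, so the counts depend on single embryos.

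**Figure D3:**
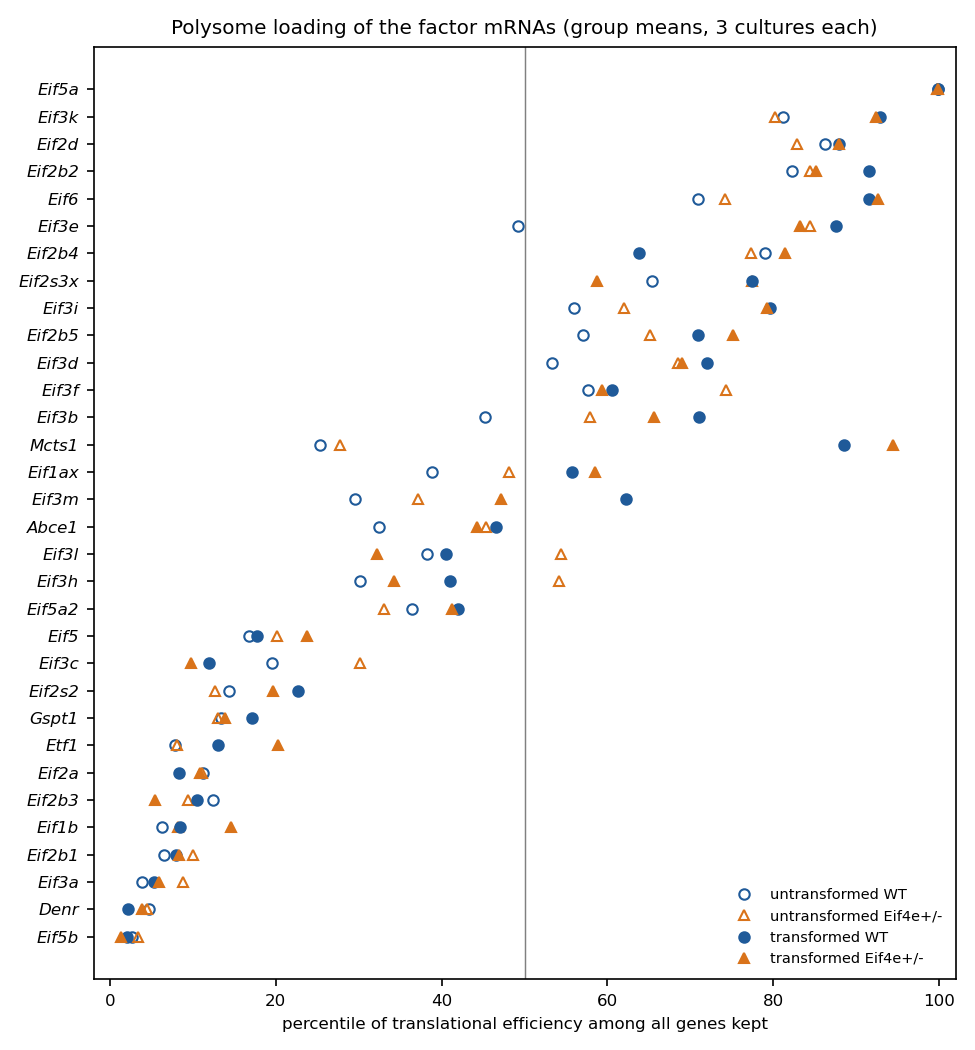
Percentile of translational efficiency among 14830 genes (x axis, 0 the lowest) for each factor mRNA, sorted by the mean of the 4 groups. Each point is the mean of 3 cultures; open symbols are untransformed, filled ones transformed. Eif5a lies at the top in all 4 groups, Eif5b and Denr at the bottom, and Mcts1 has the widest gap between open and filled symbols.

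Within each group, factor mRNAs ran from the top to the bottom of the TE ranking. Eif5a was at the 99.8 or 99.9 percentile in all 4 groups (rank 18 to 25 of 14830) by its brighter probe set, and its second probe set lay at the 98.2 to 98.7 percentile. Which genomic copy either set reads is not given in the sources used here, so its exact rank is less certain than its place near the top. Its paralog Eif5a2 lay between 33.0 and 42.0, with low polysomal values of 3.54 to 4.26, where the median of all genes was 3.88 to 4.01. Those of Eif2b1, placed below, were 3.49 to 4.89. A TE rank at such low signal is less certain, and the part of background in it was not tested. Eif3k (80.2 to 92.9), Eif2d (82.9 to 88.0) and Eif2b2 (82.3 to 91.6) were also high in each group. Mcts1 went from 25.3 and 27.7 in untransformed WT and Eif4e+/- cells to 88.5 and 94.4 in transformed ones. Its untransformed polysomal values, 4.17 to 5.72 in WT and 4.74 to 5.32 in Eif4e+/-, were in part as low as those of Eif2b1. The starting rank of Mcts1 and the size of its rise are thus less certain too.

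At the other end were Eif5b (1.27 to 3.36), Denr (2.21 to 4.71), Eif3a (3.79 to 8.80) and Eif2b1 (6.49 to 9.99). Both release factors were low, Etf1 at 7.83 to 20.3 and Gspt1 at 13.0 to 17.1. Subunits of 1 complex did not share a place: mean percentiles ran from 5.95 (Eif3a) to 86.7 (Eif3k) within eIF3 and from 8.18 (Eif2b1) to 85.9 (Eif2b2) within eIF2B. Members lay above the median of all genes in 11 of 32 cases in untransformed WT and in 15 or 16 of 32 in the other groups. With no filter on low values these were 7 in untransformed WT, 11 in untransformed Eif4e+/-, 13 in transformed WT and 12 in transformed Eif4e+/- cells. TE fell with total RNA level across all genes (Pearson r from -0.48 to -0.55 in the 4 groups, a description, since TE contains the total value).

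The study's main question was what 1 missing Eif4e allele changes. In total RNA 0 of 32 members were called between genotypes in untransformed cells (0.00% of all genes) and 0 in transformed cells (0.0472%). At an unadjusted p under 0.05 the numbers were 0 and 2, against 2.37% and 9.30% of all genes. The 95% confidence intervals in total RNA had a median half-width of 0.18. The whole interval lay within 0.5 log2 units of 0 for 32 of 32 members in untransformed and 30 of 32 in transformed cells. Eif4e itself differed by less than 0.5 in untransformed cells, with means of 9.10 in WT and 8.80 in Eif4e+/-. An interval within 0.5 of 0 can therefore still hold a difference of the size seen for the targeted gene.

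Values of Eif4e+/- cultures lay above all WT ones for 4 members in untransformed total RNA and below for 0 (all genes: 5.01% and 5.87%), and for 3 and 0 in transformed total RNA (5.81% and 4.44%). Eif3f, an MPN domain subunit of eIF3, was 10.75, 10.60 and 10.79 in WT and 10.87, 10.85 and 10.87 in Eif4e+/- untransformed cultures, a difference of 0.15 ± 0.08. Eif3b was 10.79, 10.60 and 10.77 against 10.86, 10.83 and 10.83, a difference of 0.13 ± 0.07. Neither pair of groups overlapped, and neither passed (limma adjusted p = 0.9999 for both). In transformed cells the groups of Eif3f did not overlap either, with WT values up to 10.86 and Eif4e+/- values from 10.91, and it was not called.

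The largest genotype difference in total RNA was that of Eif2b3, the gamma subunit of eIF2B. It was 10.08, 10.21 and 9.86 in WT and 10.52, 10.43 and 10.27 in Eif4e+/- transformed cultures, without overlap, and 9.97, 9.78 and 10.15 against 10.05, 10.29 and 10.18 in untransformed ones, with overlap. The differences were 0.36 ± 0.12 and 0.21 ± 0.12, and neither passed (limma adjusted p = 0.408 and 0.9999). In transformed cells Eif3m was 12.21, 12.07 and 11.95 in WT against 12.29, 12.27 and 12.22, a difference of 0.18 ± 0.07 (limma adjusted p = 0.486), and Eif2b5 was 9.03, 9.27 and 8.94 against 9.26, 9.33 and 9.20, a difference of 0.19 ± 0.09 (0.537). The first pair of groups did not overlap and the second did. An exact two-sided permutation test of 3 against 3 cannot go below p = 0.1.

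**Figure D4:**
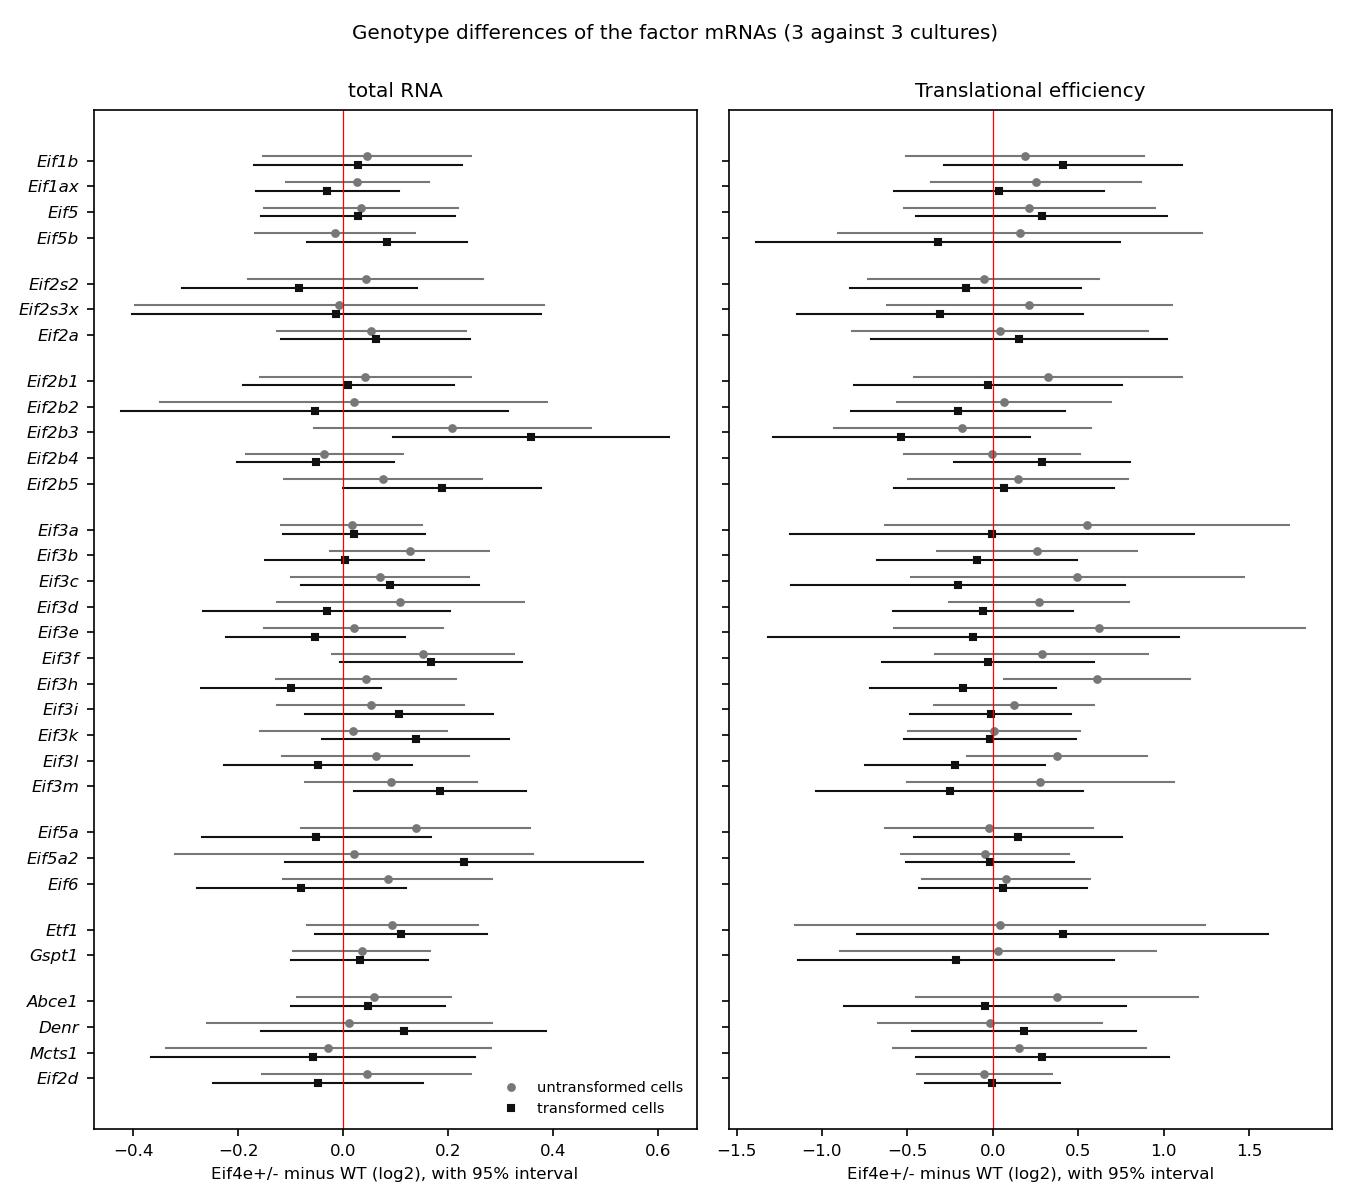
Eif4e+/- minus WT difference (log2) of each factor mRNA with its 95% confidence interval in total RNA (left) and translational efficiency (right), for untransformed (grey) and transformed (black) cells, 3 against 3 cultures. Total RNA intervals have a median half-width of 0.18 and TE intervals of 0.67, so the x axes differ; 0 of 32 members passed the adjusted test in any of these comparisons.

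Polysomal RNA and TE gave 0 of 32 called members between genotypes in either state, with 0.00% of all genes called in all 4 comparisons. At an unadjusted p under 0.05 there were 1 and 0 members in polysomal RNA of untransformed and transformed cells (all genes: 1.67% and 3.22%) and 1 and 0 in TE (1.45% and 2.90%). Median half-widths of the intervals were 0.70 in polysomal RNA and 0.67 in TE, and single members ran from 0.37 to 1.34 and from 0.40 to 1.20. These intervals are for 1 gene at a time, and a call after adjustment over all genes needs a larger difference.

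The member with the smallest p was Eif3h. Its polysomal level was 7.67, 7.31 and 8.39 in untransformed WT and 8.59, 8.52 and 8.22 in untransformed Eif4e+/- cultures, a difference of 0.65 ± 0.25 (limma adjusted p = 0.9999, unadjusted 0.021). Its TE was -4.49, -4.83 and -3.78 against -3.60, -3.69 and -3.98, a difference of 0.61 ± 0.25 (adjusted p = 0.9998, unadjusted 0.0311). The groups overlapped through WT embryo 3 in both. Eif3l, the partner of Eif3k, had polysomal values of 7.33, 6.70 and 7.89 against 7.87, 7.83 and 7.52, and polysomal Eif3f was 6.52, 7.09 and 7.36 against 7.54, 7.54 and 7.21, each a difference of 0.44 with overlap. In TE, Eif3l had 0.37 (-4.18, -4.63 and -3.57 against -3.65, -3.66 and -3.95) and Eif3e had 0.62 (-4.78, -4.41 and -2.43 against -3.42, -2.86 and -3.48), with wide spreads within WT.

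As a group, all 11 eIF3 subunits had a positive genotype difference in untransformed total RNA, polysomal RNA and TE, where 45.5%, 53.0% and 56.3% of all genes did. Their medians were 0.06, 0.44 and 0.29. In transformed cells the TE difference was negative for 11 of 11 eIF3 subunits, with a median of -0.09, where 47.1% of all genes were positive. None of these single differences was called. Some were small, such as Eif3k TE with -3.35 in untransformed WT and -3.34 in untransformed Eif4e+/- cells. In transformed cells the TE of Eif3a was -5.77 in WT and -5.78 in Eif4e+/-, and that of Eif3i was -3.32 and -3.33. Transformed polysomal RNA of Eif3a, Eif3f, Eif3i and Eif3k was higher on average in Eif4e+/-, and that of the other measured subunits lower. The positive sign in untransformed cells was not particular to eIF3. In untransformed total RNA the other members were also higher on average in Eif4e+/-, apart from Eif5b, Eif2s3x, Eif2b4 and Mcts1. In polysomal RNA the exceptions were Eif2s2, Eif2b4, Eif5a2, Denr and Eif2d. In TE they were Eif2s2, Eif2b3, Eif2b4, Eif5a, Eif5a2, Denr and Eif2d. The subunits share the same arrays, and the members' median TE in the untransformed WT cultures was -4.65, -4.64 and -3.59 against -3.98, -3.82 and -3.97 in Eif4e+/- ones, so that WT embryos 1 and 2 were low and WT embryo 3 was high for most factors at once. Over the fits that each left out 1 embryo, the members' median TE difference in untransformed cells ran from -0.04 to 0.53. In transformed cells it ran from -0.19 to 0.14, so its sign depended on single embryos.

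In transformed cells the 3 smallest p-values in polysomal RNA were those of Eif1b, Eif3h and Eif2b2. Eif1b was 5.86, 5.89 and 4.85 in WT and 6.07, 5.89 and 5.96 in Eif4e+/- cultures (0.44 ± 0.32), and Eif3h was 8.75, 8.42 and 8.52 against 8.53, 8.24 and 8.10 (-0.27 ± 0.25). Eif2b2, the beta subunit of eIF2B, was 5.73, 5.95 and 5.59 against 5.56, 5.44 and 5.50 (-0.26 ± 0.24) and was the only member whose groups did not overlap, with lower values in Eif4e+/- (4.37% of all genes). In TE they were Eif2b3 (-5.50, -5.05 and -5.34 against -5.18, -6.13 and -6.19; -0.54 ± 0.35), Eif1b (-5.01, -5.20 and -6.17 against -4.95, -5.30 and -4.91; 0.41 ± 0.32) and Eif2b4 (-3.15, -3.56 and -4.02 against -3.11, -3.67 and -3.09; 0.29 ± 0.24). The transformed WT embryo 3 culture held the lowest TE of Eif1b and of Eif2b4. Without the cultures under the correlation cut, the differences of these genes were -0.0221 and -0.031.

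The test of whether the transformation change differed between genotypes called 0 of 32 members in total RNA, polysomal RNA and TE (0.00% of all genes in each). At an unadjusted p under 0.05 there were 0, 1 and 0 members (all genes: 4.88%, 2.12% and 1.95%). The 1 member was Eif3h in polysomal RNA, which was also the 1 of 32 whose Eif4e+/- embryo changes all lay below the WT ones, against 3.39% of all genes.

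Eif2s3x, the X-linked gene of eIF2 gamma, has a Y-linked counterpart, Eif2s3y, and the embryos differed in it. In total RNA Eif2s3y was 9.85 and 9.18 in WT embryo 2 and 9.95 and 10.00 in Eif4e+/- embryo 3 (untransformed, then transformed) and between 4.31 and 4.49 in the cultures of the other 4 embryos. Xist, the noncoding RNA of the inactive X chromosome, was 5.46 to 5.79 in those 2 embryos and 10.87 to 11.71 in the others. Eif2s3x was 11.74 and 12.07 in WT embryo 2, 11.78 and 11.92 in Eif4e+/- embryo 3, and 12.17 to 12.38 in the others. The cultures with Y-linked RNA thus held the 4 lowest Eif2s3x values, and each genotype had 1 such embryo. Eif2s3x escapes inactivation of the X chromosome, as is known from earlier work. It also had the widest within-group SD of the members in total RNA, 0.24 pooled over the 4 groups. In polysomal RNA Eif2s3y was 3.62 to 4.38 in the cultures of those 2 embryos and 1.96 to 2.49 in the others.

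**Figure D5:**
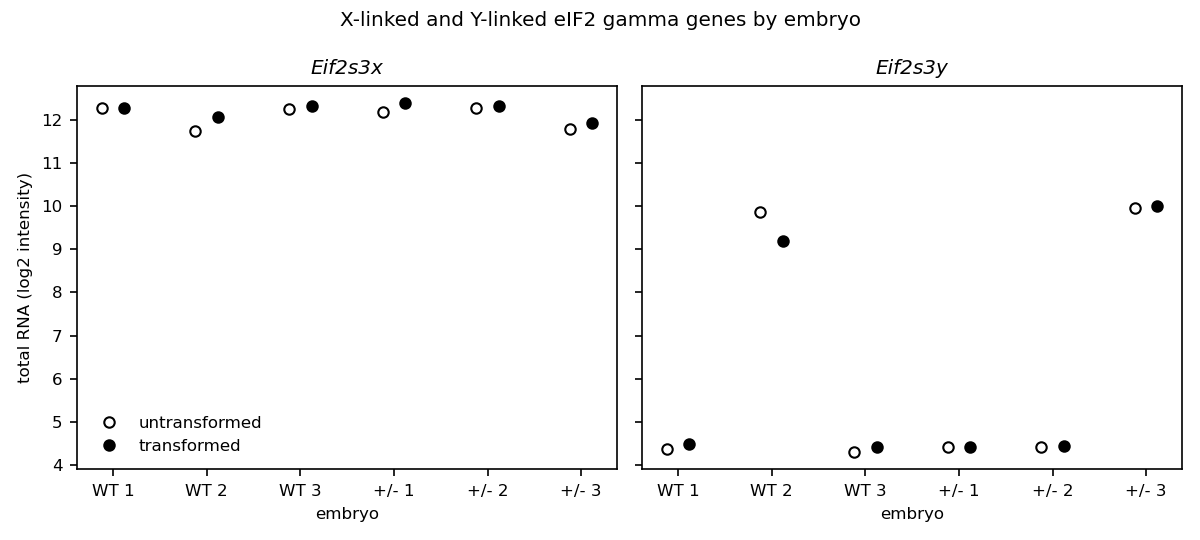
Total RNA level (log2 intensity) of the X-linked gene Eif2s3x and its Y-linked counterpart Eif2s3y in each embryo, open for the untransformed and filled for the transformed culture. WT embryo 2 and Eif4e+/- embryo 3 have Eif2s3y values of 9.18 to 10.00 and Eif2s3x values of 11.74 to 12.07, below the 12.17 to 12.38 of the other embryos. Levels of different probe sets are not comparable with each other.

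Other genes of the translation machinery, counted by list, moved in both directions with transformation. In total RNA, where 15.0% of all genes rose and 15.8% fell, 5 of 15 measured eIF4F genes and regulators rose and 1 fell; the smallest p-values were those of Pdcd4, an inhibitor of the helicase eIF4A (0.91), Paip2, an inhibitor of poly(A)-binding protein (0.37), and Pabpc1, that protein itself (0.27). Of 8 elongation factors 0 rose and 1 fell, Eef2k, the kinase that inactivates eEF2 (-0.42). Of 8 eIF2 kinases and phosphatase subunits 0 rose and 2 fell, namely Impact, which restrains the kinase GCN2 (-0.25), and Ppp1r15b, the constitutive eIF2 phosphatase subunit (-0.21). Of 9 surveillance and rescue factors 0 were called. In polysomal RNA, where 3.67% of all genes rose and 4.05% fell, Paip2 (1.44), Eef1e1, a scaffold of the tRNA synthetase complex (1.52), and Eef1d, an exchange factor subunit of eEF1 (0.66), rose and Impact (-0.96) fell, and in TE 0 genes of these lists were called (2.78% of all genes). Between genotypes 0 genes of the lists were called in any of the 6 comparisons.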

How the data were processed

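Log2 RMA intensities of 24 Affymetrix Mouse Gene 1.0 ST arrays were used as the authors deposited them. Per the submitters' processing notes, they were made by RMA. The RMA version, chip definition and probe filter are not given in the sources used here. Per the labels' protocols, cells received cycloheximide (100 µg/ml) before lysis, and sucrose gradients of 10 to 50% gave the polysomal fraction. Samples were grouped by genotype, state, fraction and embryo number from the labels.

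Of 25668 probe sets, 20777 carried 1 symbol in the platform annotation, 232 several and 4659 none. The brightest probe set was used for each of 19661 genes, and genes above the 40th percentile of an array on at least 3 arrays were kept (14830). limma 3.58.1 (lmFit, eBayes) in R 4.3.3 was fitted across all genes, with Benjamini-Hochberg adjustment over all of them. Genotype effects came from 4 group means (8 residual df); transformation effects and interactions had embryo as a block (4 residual df), since the labels match both cultures by embryo. Deviations of an embryo's 2 cultures correlated between -0.058 and 0.219 in total RNA, -0.438 and 0.062 in polysomal RNA and -0.413 and 0.097 in TE, so the pairing comes from the labels.

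Per-culture values are given for the 8 called members with the largest change in total RNA, all members called elsewhere and the 3 smallest p-values of each genotype comparison; at most 3 genes of a pathway list are named. The members, lists and this rule were chosen with earlier results of these data known. Alternatives were filter, normalization, centring, probe sets, variance model, array weights, block, samples in the fit, each embryo left out and 3 polysomal cultures left out. The fits were tested on simulated data. Promoter letters were searched in RefSeq windows (GRCm38.p6).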

Additional observations from a re-analysis of the deposited data

Results flagged for a closer look

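The change of Eif3h in polysomal RNA went up in all 3 WT embryos (1.08, 1.105 and 0.13) and down in all 3 Eif4e+/- embryos (-0.06, -0.29 and -0.12). The mean changes were 0.77 and -0.15, a difference of -0.93 on the log2 scale (Eif4e+/- minus WT), which did not pass limma's interaction test (adjusted p = 0.9996, unadjusted p = 0.0205). Embryo changes of Eif4e+/- all lay below those of WT for 3.39% of all genes, and for 1 of 32 members, so the share of members is near that of all genes. The 3 Eif4e+/- values and that of WT embryo 3 lay close to 0. The members' median polysomal change was 0.97, 0.91 and -0.69 in WT embryos 1, 2 and 3 and 0.51, -0.23 and 0.31 in Eif4e+/- ones. The Eif3h rises in WT embryos 1 and 2 were thus near that of the members in general. The untransformed WT embryo 1 array also had the lowest median correlation of the polysomal arrays (0.876). In total RNA, Eif3h was higher after transformation in all 6 embryos.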

How the results depend on the processing

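Over the alternatives, 480 of 532 recomputed single-gene values kept their direction and their side of the threshold, 49 lost the call and 3 turned. The values that turned were small. The Mcts1 total RNA change was -0.0506 to 0.0985 when 1 embryo was left out, the lowest without WT replicate 2. Without the 3 polysomal cultures under the correlation cut, the TE genotype differences in transformed cells of Eif1b (-0.0221) and Eif2b4 (-0.031) turned. Eif3h, Eif2a, Eif2d and Eif3m in total RNA and Mcts1 in polysomal RNA and TE were called in each setting run.

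The count of members called after transformation in total RNA (11) ran from 5 to 9 when 1 embryo was left out and from 9 to 16 in the other settings, the highest with quantile normalization. In polysomal RNA (3) it ran from 1 to 16 when 1 embryo was left out. It was 1 with trend and robust settings, 1 without the 3 cultures under the correlation cut and 5 with no replicate block. In TE (1) it ran from 1 to 6 when 1 embryo was left out. The 16 in polysomal RNA and the 6 in TE came without WT replicate 3. Genotype and interaction counts were 0 in each setting, including embryo as a random replicate block (consensus correlation 0.06 in total RNA, -0.11 in polysomal RNA and -0.10 in TE). With no filter on low values, 7 members in place of 11 lay above the median TE of all genes in untransformed WT cells. Fewer embryos also leave fewer residual degrees of freedom, and the cause of these shifts was not tested. Polysomal intervals are wide, so a member not called there may still differ.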
